A study of Saccharomyces cerevisiae with 2 samples.

Results

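The genes described here encode the respiratory chain and the ATP synthase of Saccharomyces cerevisiae, with the assembly factors that share their names. They were chosen by symbol: CYT1, COR1, RIP1, CYC1, NDI1, NDE1 and every symbol made of COX, QCR or ATP, a number and an optional A or B. Of the 6207 open reading frames on the array 47 met this rule. They comprised 9 genes of complex III, 9 subunits and 9 assembly factors of complex IV, 11 subunits and 6 assembly factors of complex V, and CYC1, NDI1 and NDE1. A ratio on both arrays was present for 16 of the 47.

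The RNA came from a yeast mutant called msn2/4 in the labels, for the genes of 2 transcription factors of the general stress response; alleles and strain background are not stated in the labels. Cells grew at 24 °C on YEPD, a rich glucose medium, and the culture was split. One part received Zymolyase 100T at 5 units per ml, a mixture of enzymes that breaks down cell wall glucan, the other received none, and cells were taken at 3 hours. Both parts carry the same mutant genotype, and without a wild-type strain the contribution of Msn2 and Msn4 was not measured. For this mutant the design text names 1 culture, while the text attached to each array speaks of 2 cultures and 4 arrays per condition; the design text was followed.

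On array 1 the untreated extract was labelled with Cy5 and the treated one with Cy3; array 2 used the opposite dyes. This technical dye swap is a single replicate of the comparison. It allows no test between conditions and no p-value, and every SD is over the 2 hybridisations (n = 2 arrays) and covers hybridisation and dye error, not the spread between cultures.

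All values are log2 ratios. The medians of the deposited columns over all genes were -0.38 on array 1 and 0.40 on array 2; the sources used here do not say which condition is the numerator or how values were centred. The sign of array 2 was turned, since the labels exchange its dyes, and values below are after that turn unless stated. Positive ratios are likely zymolyase over untreated: SLT2, PIR3 and CRH1, genes that published work reports as raised by zymolyase, had means of 3.04 ± 1.47, 3.21 ± 0.73 and 2.35 ± 1.14, positive on both arrays. Those genes were part of the reason for the turn, so they are no independent check of it. Over 2254 genes with both ratios Pearson's r between the arrays was -0.19 after the turn, and the median of the mean ratios was -0.37, the level against which positions below are read. MSN2 and MSN4 had no ratio on either array.

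In yeast mitochondria, NADH is oxidised by single-protein dehydrogenases in place of the proton-pumping complex I of mammals. Their electrons pass through ubiquinone to complex III (the cytochrome bc1 complex), then through cytochrome c to complex IV (cytochrome c oxidase), which reduces oxygen. Complexes III and IV pump protons, and complex V (the ATP synthase) uses the resulting gradient: its membrane part Fo turns a central stalk inside the catalytic head F1. Many of these genes are repressed by glucose and activated by the Hap2/3/4/5 complex when yeast respires.

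The mean ratios of the respiratory genes had the same median as those of all genes, but the arrays behind that median differed. The median of the 16 mean ratios was -0.37, with quartiles of -0.81 and -0.10, against an all-gene median of -0.37 with quartiles of -0.84 and -0.02. On the single arrays the 16 genes had medians of -0.73 and 0.29, against -0.31 and -0.39 for all genes, so the match came from arrays on opposite sides of the all-gene level. To be called, a gene needed 1 sign on both arrays and a mean beyond 2-fold, which is 1 in log2 units. By that rule NDE1 was positive and QCR6 negative, 1 gene of 16 each, while 2.88% of all genes were positive and 13.6% negative. Another 3 genes, QCR7, ATP5 and ATP7, had a mean beyond 2-fold with opposite signs on the arrays and were not counted; among all genes this held for 6.21%. In bulk RNA such as this, fewer cells that carry a transcript and less of it in each cell cannot be told apart.

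**Figure D1:**
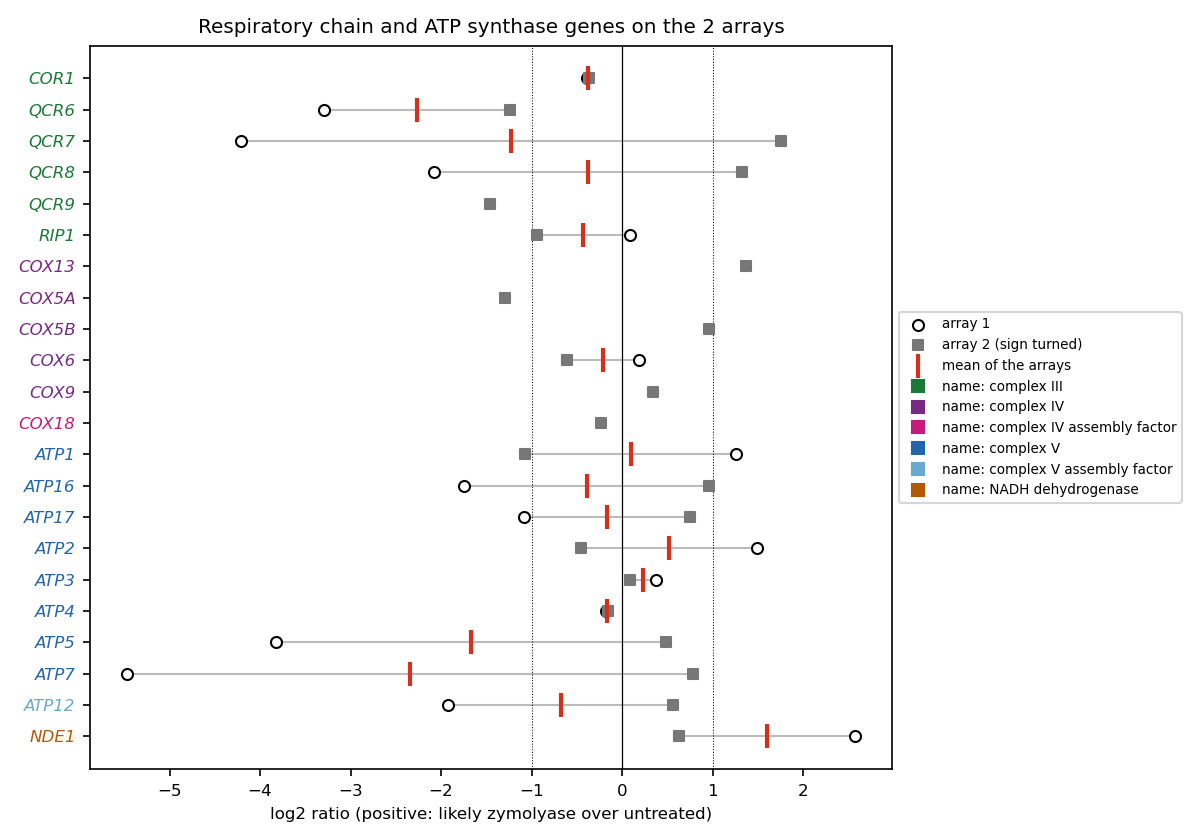
Log2 ratios (x axis) of the 22 genes with a ratio on at least 1 array, in rows coloured by complex; circles are array 1, squares array 2 after its sign was turned, red bars the mean where both exist, and dotted lines mark 2-fold. NDE1 lies right of 0 and QCR6 left of 0 on both arrays, while ATP7 and QCR7 span 0.

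The electron entry side held the highest ratio. NDE1 encodes the external NADH dehydrogenase, which oxidises cytosolic NADH at the outer face of the inner membrane. Its ratio was 2.58 on array 1 and 0.63 on array 2, a mean of 1.60 ± 1.38 (3.04-fold), which ranked 41st from the top among 2254 genes. Both arrays were positive, and only array 1 was beyond 2-fold. NDE2, the paralog of NDE1 with the same activity, had -2.38 on array 1 and 0.91 on array 2, with a mean of -0.74 ± 2.32. The arrays thus did not give NDE2 a direction, and transcripts of such paralogs may not be fully separated on an array of this kind. NDI1, the internal NADH dehydrogenase that faces the matrix, and CYC1, the main isoform of cytochrome c, had no ratio.

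Complex III passes electrons from ubiquinol to cytochrome c. It had 5 of 9 genes with both ratios, with a median mean of -0.43, and none of the 5 lay above the all-gene median. That count rests on small gaps, since COR1 (-0.372), QCR8 (-0.375) and RIP1 (-0.427) were close to the median of -0.368. QCR6, the acidic hinge subunit beside cytochrome c1, had -3.30 on array 1 and -1.24 on array 2. Its mean was -2.27 ± 1.46, 4.82-fold on the negative side and 87th from the bottom of 2254 genes. QCR6 was beyond 2-fold on each array, as no other gene of the 16 was with 1 sign.

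COR1, a core protein of complex III, gave almost the same ratio on both arrays, -0.38 and -0.36, with a mean of -0.37 ± 0.014. That is the level of the median gene on both hybridisations. RIP1, the Rieske iron-sulfur protein that takes the first electron from ubiquinol, had 0.083 and -0.94, and its mean of -0.43 ± 0.72 was smaller than the SD.

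For each of the small subunits QCR7 and QCR8 the arrays were opposed, negative on array 1 and positive on array 2. QCR7 had -4.21 on array 1 and 1.76 on array 2, a mean of -1.22 ± 4.22. QCR8 had -2.08 and 1.32, a mean of -0.38 ± 2.40. For both genes the SD was several times the mean, so the pair of hybridisations gave no direction. QCR9, another small subunit, had a ratio on array 2 alone, -1.46. CYT1 (cytochrome c1), QCR2 (the second core protein) and QCR10 had none.

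Complex IV could be described least. COX6 was the one subunit of 9 with both ratios, 0.18 and -0.60, with a mean of -0.21 ± 0.56. It was close to 0 with opposite signs. A further 4 subunits had a ratio on array 2 alone, where no dye effect can cancel. Among these were the alternative forms of subunit 5: COX5A, the form used in aerobic cells, had -1.29 and COX5B, the form used when oxygen is low, 0.96. They lay at percentiles 18.3 and 90.4 of the 2918 genes valued on array 2. Comparisons with all genes here take no account of gene length, and the 4 subunits are short, from 180 to 544 bases. Short genes ran higher on array 2. The 225 genes under 600 bases with both ratios had a median of 0.57 there, and 53 of them passed 2-fold upward and 14 downward. The high place of COX5B is thus partly shared by these short genes, while the low place of COX5A is not. The 225 do not include the 164 genes under 600 bases valued on array 2 alone, to which COX5A and COX5B belong. A switch between the 2 forms was not tested. COX13 had 1.37 and COX9 0.35 on that array. On array 2 as a whole 25.9% of genes were at least 2-fold negative and 9.29% at least 2-fold positive, against COX5A and COX13 among the 4 subunits. COX4, COX7, COX8 and COX12 had no ratio.

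Of the 9 complex IV assembly factors none had both ratios. COX18, which inserts part of Cox2 into the membrane, had -0.24 on array 2. COX10 and COX15, which make heme A, COX11 and COX17, which deliver copper, and COX14, COX16, COX20 and COX23 had no ratio.

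Complex V had the fullest coverage, with 8 of 11 subunits on both arrays. Its median mean was -0.17 and 5 of the 8 lay above the all-gene median of -0.37, with a range of -2.34 to 0.52. None of the 8 passed the rule.

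In the catalytic head F1 the means ran from -0.39 to 0.52, and 3 of the 4 genes with both ratios lay above the all-gene median of -0.37. ATP2 and ATP3 ranked 164th and 298th from the top of 2254 genes. ATP2, the beta subunit that holds the catalytic sites, had 1.49 on array 1 and -0.46 on array 2, a mean of 0.52 ± 1.38. ATP1, the alpha subunit, had 1.26 and -1.08, a mean of 0.094 ± 1.65. Alpha and beta were thus positive on array 1 and negative on array 2. ATP3, the gamma subunit that forms the rotating stalk, had 0.38 and 0.089, a mean of 0.23 ± 0.20, and was the one F1 gene with the same sign on both arrays. ATP16, the delta subunit at the foot of that stalk, had -1.74 and 0.96, a mean of -0.39 ± 1.91. ATP15, the epsilon subunit, had no ratio.

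Among the subunits of the outer stalk and Fo the arrays agreed for ATP4. ATP4, subunit b of the outer stalk, had -0.18 and -0.15, a mean of -0.17 ± 0.019. This is above the all-gene median on both arrays and far from 2-fold. ATP7, subunit d of the same stalk, had -5.47 on array 1 and 0.78 on array 2, a mean of -2.34 ± 4.43, the lowest of the 16. ATP5, the OSCP subunit that joins the stalk to F1, had -3.82 and 0.49, a mean of -1.67 ± 3.05. The negative means of ATP7 and ATP5 came from array 1, where they lay at percentiles 1.73 and 4.57 of all genes, while on array 2 they lay at percentiles 87.1 and 80.3. ATP17, subunit f of Fo, had -1.08 and 0.76, a mean of -0.16 ± 1.30. ATP14 (subunit h) and ATP20 (subunit g) had no ratio.

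Of the complex V assembly factors ATP12, the chaperone of the alpha subunit, had -1.92 and 0.57, a mean of -0.68 ± 1.76. Its arrays were again opposed. ATP11, the chaperone of the beta subunit, ATP10 and ATP23, which act on Atp6, ATP22, needed for translation of Atp6, and ATP25, needed for the messenger RNA of subunit c, had no ratio.

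Complexes III, IV and V could not be told apart by these values. The medians of -0.43, -0.21 and -0.17 rested on 5, 1 and 8 genes, and the arrays' own medians were -2.08 and -0.36 for complex III, 0.18 and -0.60 for complex IV and -0.63 and 0.29 for complex V. The SD between those array medians was 1.21, 0.56 and 0.65, larger than any gap between the complexes. Genes are not replicates, so no test between complexes was made.

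The half-difference of the arrays (array 1 minus turned array 2, divided by 2) holds dye and hybridisation effects if the turn is right, and is itself the mean if the turn is wrong. It is larger in size than the mean wherever the arrays have opposite signs, as they had for 11 of the 16 genes. The sign was the same on both arrays for 5 of the 16 genes (31.2%) and for 39.8% of all genes. Those 5 were COR1, QCR6, ATP3, ATP4 and NDE1. Each of the 5 had a mean larger than its SD, as had 29% of all genes. A mean can exceed its SD only where the signs agree, so this adds no separate support. Another 7, namely QCR7, QCR8, ATP5, ATP7, ATP12, ATP16 and ATP17, were negative on array 1 and positive on array 2, a pattern shown by 26.3% of all genes. These 7 were between 285 and 978 bases long. ATP1, ATP2, RIP1 and COX6 had the reverse pattern, shown by 34.0% of all genes. Taken singly, array 1 put 8 of the 16 at least 2-fold negative and 3 at least 2-fold positive, where it put 33.3% and 12.8% of all genes. Array 2 put 2 genes on each side, where it put 24.6% of all genes on the negative and 8.43% on the positive side.

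**Figure D2:**
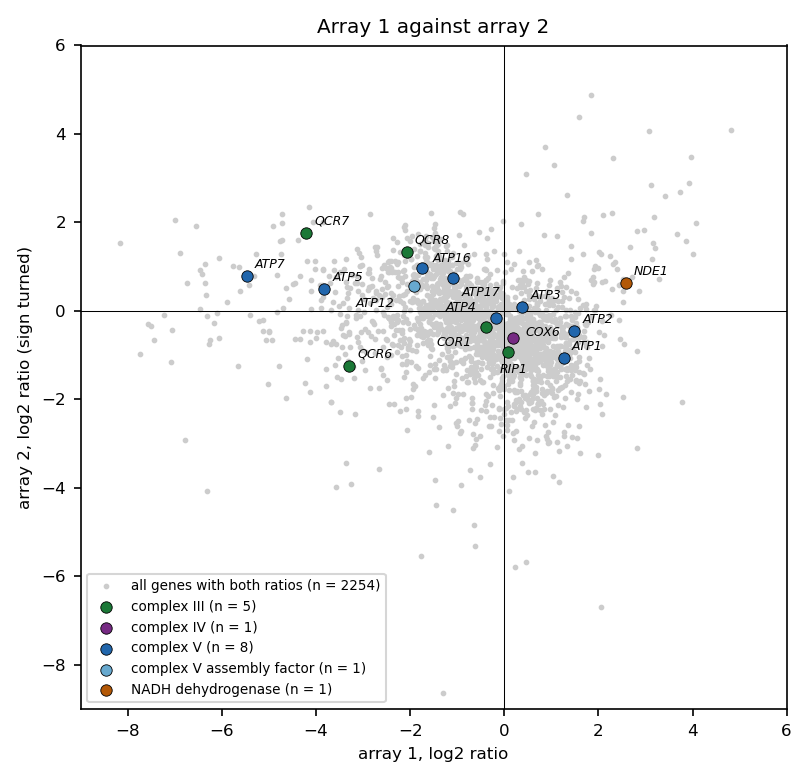
Log2 ratio on array 1 (x axis) against array 2 after its sign was turned (y axis) for 2254 genes in grey and the 16 respiratory genes in colour. Of the 16, 7 lie in the upper left quadrant and NDE1 stands in the upper right at 2.58 and 0.63.

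The half-difference moved with gene length, taken from RefSeq gene models, which end at the start and stop codons and include introns. Across 2174 genes Spearman's rho was 0.46 for the half-difference and 0.03 for the mean. Among the 16 genes rho was 0.66 for the half-difference and 0.51 for the mean, and among the 8 complex V subunits 0.79 and 0.62. These points share 2 hybridisations, and the values are descriptions. Respiratory genes are short: 25 of the 47 were under 600 bases, as were 882 of 5654 genes with a known length. Of the genes under 600 bases with both ratios, 68.4% of 225 were negative on array 1 and positive on array 2. The median half-difference of these short genes was -0.94, and that of the 7 respiratory genes under 600 bases was -1.35.

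ATP7 and QCR7 lay far beyond that trend, with half-differences of -3.13 and -2.98, the 28th and 38th lowest of 2254 genes. ATP5 followed at -2.15 and QCR8 at -1.70. The longest subunits ATP1 and ATP2 stood at the other end with 1.17 and 0.97, and NDE1, of similar length, had 0.97. COR1 and ATP4, at -0.0097 and -0.014, had almost no half-difference.

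**Figure D3:**
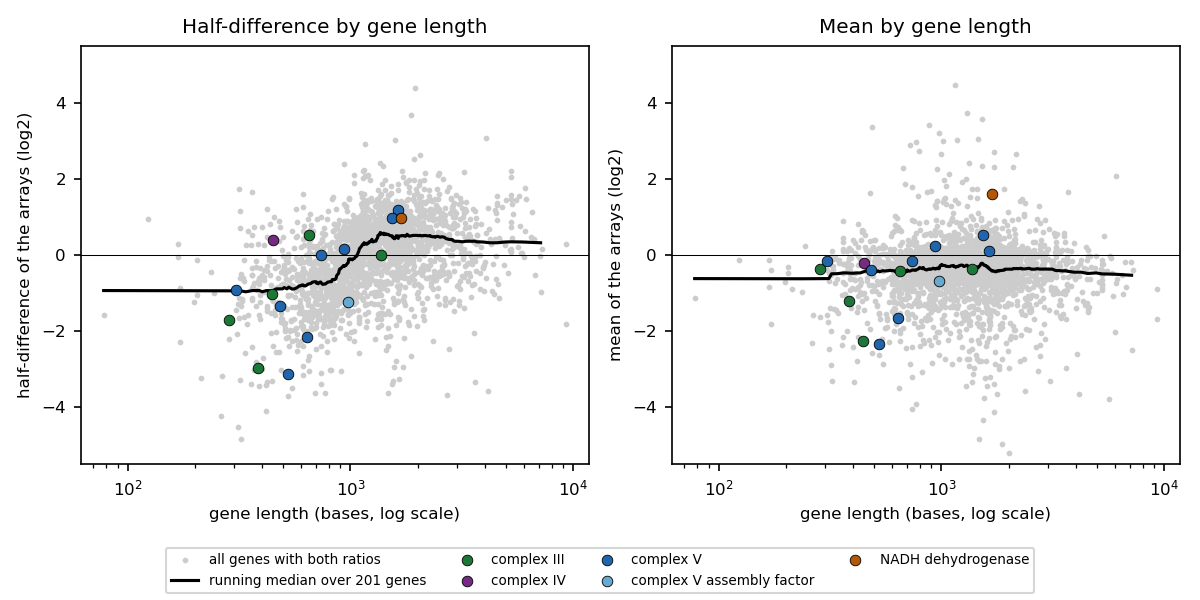
Half-difference (left) and mean (right) of the arrays on the log2 scale against gene length on a log axis, for all genes in grey with their running median in black and the respiratory genes in colour. The running median of the half-difference climbs from -0.94 at 78 bases to 0.59 at 1359 and is 0.32 at 7131. That of the mean moves less and not in 1 direction, with -0.62 at 78 bases, -0.25 at 1002 and -0.54 at 7131. QCR7 (-2.98) and ATP7 (-3.13) lie well below the running median on the left.

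Subtracting the running median of genes of like length from each array left the same calls. NDE1 then had 2.47 on array 1 and 1.42 on array 2, beyond 2-fold on each, and QCR6 had -1.96 and -1.83. The arrays thus came closer for both genes. Other genes moved apart: COR1 then had -0.63 and 0.47 and ATP4 1.01 and -0.34, so that their arrays, nearly equal before, took opposite signs. RIP1 (1.29 and -1.27) and COX6 (1.52 and -1.19) also spread further. ATP7 (-4.20 and 0.15) and ATP5 (-2.60 and 0.14) kept their large negative ratio on array 1 and lost most of the positive one on array 2.

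The calls depended on the turn of array 2, which these values do not settle. With array 2 as deposited, the rule gave 1 positive gene, ATP1, and 6 negative ones, ATP5, ATP7, ATP12, ATP16, QCR7 and QCR8, where 12.3% of all genes were positive and 13.7% negative; NDE1 and QCR6 were then not called, since their signs opposed.

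Other genes of respiration were read from lists chosen with earlier results of these data known. SDH3, a succinate dehydrogenase subunit and the one complex II gene with both ratios, had opposed arrays, with -3.32 on array 1 and 0.40 on array 2. SDH2, the iron-sulfur subunit, had -0.81 on array 2 alone. In the tricarboxylic acid cycle, which feeds electrons to the chain, 2 of 10 genes with both ratios were positive and none negative, beside the 2.88% and 13.6% of all genes; with array 2 as deposited none of the 10 was called. The 2 were CIT1, the citrate synthase, at 1.49 ± 1.47 (2.52 and 0.45), and ACO1, aconitase, at 1.02 ± 1.30 (1.94 and 0.10). The cycle's median of 0.75 was higher than that of complex V (-0.17) or complex III (-0.43), with array medians of 1.15 and 0.16. On array 2 the complex V median was 0.29, above that of the cycle, so the order of these 2 came from array 1. The SD between array medians was 0.70 for the cycle, 0.65 for complex V and 1.21 for complex III. No test between these sets was made. The cycle genes with both ratios were at least 990 bases long, so the range of lengths differed from that of the complexes.

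Factors that assemble the complexes or express mitochondrial genes had 4 negative genes and no positive one among the 10 of 39 with both ratios, beside 13.6% and 2.88% of all genes, with a median of -0.82. With array 2 as deposited none of these 4 was called, and RPO41 was positive and CYC3 negative, both named after their values were seen. AEP2, needed to translate the mitochondrial messenger RNA of ATP synthase subunit c, had -2.09 and -2.21, a mean of -2.15 ± 0.084 (4.43-fold on the negative side). After the turn the arrays gave it nearly 1 value, unlike any other gene with a mean beyond 2-fold on these lists; as deposited its ratios had opposite signs. BCS1, which inserts the Rieske protein into complex III, had -2.57 and -0.46, a mean of -1.52 ± 1.49. AFG3, a subunit of an inner-membrane protease, had -0.33 and -2.60, and SCO2, related to the copper-delivery protein Sco1 of complex IV, had -2.46 and -0.16. In these last 3 genes both arrays were negative, with 1 array each beyond 2-fold.

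No gene passed among the other lists. Of 5 carriers and regulators with both ratios PET9, the main ADP/ATP carrier, had 0.77 ± 1.76 and POR1, the outer-membrane channel, 0.55 ± 0.56, and the median was 0.51. Of 4 coenzyme Q genes COQ1 and COQ4 had -0.76 ± 0.56 and -0.45 ± 0.86. Of 4 regulators RTG2, which signals mitochondrial state to the nucleus, had -1.53 ± 2.70 with opposed arrays and REG1, a phosphatase subunit of glucose repression, -0.65 ± 0.32. Of the Hap2/3/4/5 complex, HAP2 had -0.70 on array 2 alone and HAP3, HAP4 and HAP5 had no ratio. Among 5 other respiratory enzymes NDE2, above, and CCP1, cytochrome c peroxidase, at -0.51 ± 0.15, had the largest means.

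**Figure D4:**
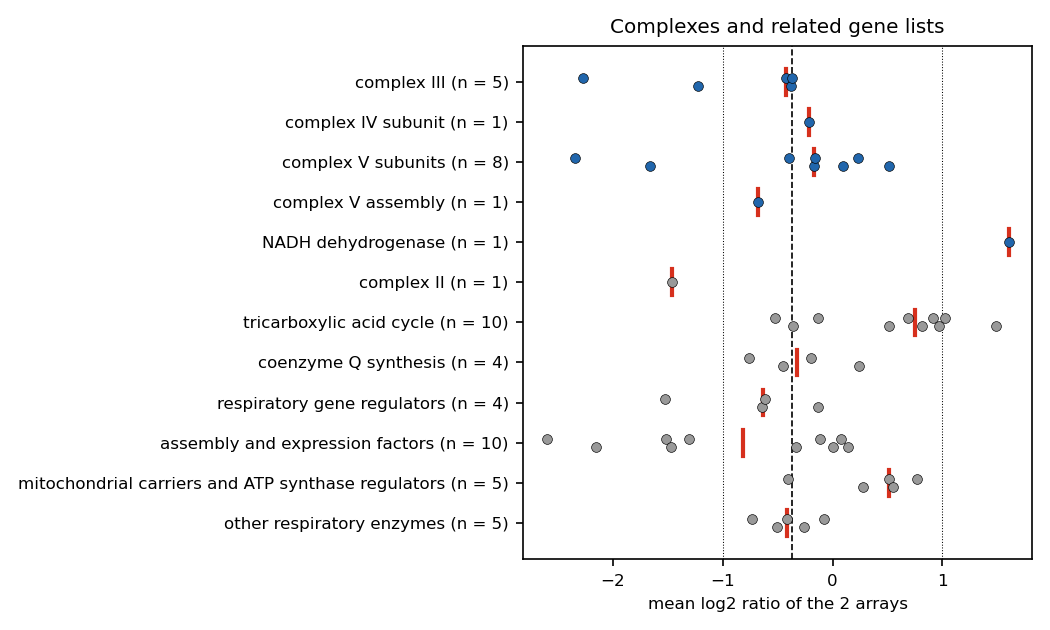
Mean log2 ratio of the arrays for each gene with both ratios, by complex (blue) and by related list (grey). Red bars are medians, the dashed line is the all-gene median of -0.37 and dotted lines mark 2-fold; the complexes scatter about the dashed line and the tricarboxylic acid cycle has a median of 0.75.

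Coverage was uneven. Of the 47 genes 16 had both ratios (34.0%, against 36.3% of all 6207), 6 had array 2 alone, none had array 1 alone, and 25 had no ratio. Among the 15 assembly factors 1 had both ratios, and among the other 32 genes 15 did. The sources used here do not say what filter left spots without a ratio, so a missing ratio says nothing about the level of a transcript. A further 9 symbols that meet the rule had no row here: the mitochondrial genes COX1, COX2, COX3, ATP6 and ATP8 and the nuclear genes ATP18, ATP19, COX19 and COX26. They were not analysed here.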

How the data were processed

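Total RNA was labelled with Cy5 or Cy3 by reverse transcription and hybridised to 2 two-colour arrays, per the labels' protocols. The authors deposited a log2 ratio for each gene on each array; scanner, background correction, normalization and filters are not given in the sources used here. The log2 base was settled from the values: all 387 array 1 values below -2 were log2 of whole multiples of 0.0001 within rounding to 4 decimals, and so were all 239 such array 2 values after turning the sign, against 3 of 40 as deposited. This shows that array 2 was inverted at some step, not which sign is right. Of 6209 rows 2 control spots were left out. Symbols and lengths came from a RefSeq table of assembly R64, which matched 5654 of 6207 names. A call needed a mean of at least 2-fold and 1 sign on both arrays. Named were all members, and of each list the genes that passed or the 2 largest means. Members and lists were chosen with earlier results of these data known. The gene length alternative subtracted a running median over 201 genes. The code was tested on simulated data. Python 3.11.15, pandas 2.3.3, SciPy 1.17.1 and Matplotlib 3.10.9 were used. Signal intensities were not part of the files, so spots with a low signal could not be recognised. The number of arrays also limits the precision.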

Additional observations from a re-analysis of the deposited data

How the results depend on the processing

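Each alternative kept all other settings; rescaling was combined with centring, and removal of the length trend also centres each array. The counts of positive and negative members (1 and 1) were the same after centring, after centring with rescaling, after removal of the length trend and at 1.5-fold. All-gene counts were 122 and 161 of 2254 after centring and 118 and 163 of 2254 with rescaling. They were 116 and 155 of 2174 without the length trend, and 109 and 515 of 2254 at 1.5-fold. Member counts were 1 and 6 with array 2 as deposited, against 277 and 309 of 2254 for all genes. When each array had to pass 2-fold they were 0 and 1, against 38 and 104 of 2254. Over the 4 members whose arrays differed by at most 1 they were 0 and 0, against 21 and 90 of 806 genes. From 1 array alone the positive count was 3 on either array. The negative count was 8 among 16 members on array 1 and 4 among 22 members on array 2. All genes had 297 positive and 859 negative of 2428 on array 1, and 271 and 757 of 2918 on array 2. The all-gene median of -0.37 became 0.069 with array 2 as deposited, 0.022 after centring, 0.026 after centring and rescaling, 0.0090 without the length trend and -0.30 among 806 genes with close arrays; it was -0.40 to -0.38 on single arrays. Centring thus raised all values by about the same amount and moved the all-gene split from 65 positive and 307 negative to 122 and 161. COX6, the only complex IV subunit on both arrays, went to 0.39 with array 2 as deposited; on single arrays the complex IV median was 0.18 on array 1 (COX6 alone) and 0.35 on array 2 over 5 subunits, where COX6 itself had -0.60. On array 1 the medians were -2.08 for complex III, -0.63 for complex V and -0.73 for all members. On array 2 they were -0.65, 0.29 and 0.22, where members with no ratio on array 1 also counted. Complex III then rested on 6 genes and all members on 22, against 5 and 16 on array 1. Over the 5 complex III genes with both ratios the array 2 median was -0.36. The causes of these moves were not tested. NDE1 and QCR6 kept their sign in every alternative that gave them a value, though not always their call. ATP1, QCR7 and QCR8, not called here, were called on each single array with opposite signs. No median was computed for complex IV assembly factors, of which none had both ratios. No paired analysis was possible because the 2 arrays are a dye swap of a single pair of extracts. Without spot intensities, signal over background is unknown.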

Other observations

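The 2 control spots carried ratios on both arrays. The Arabidopsis spot had -1.15 on array 1 and 3.27 on array 2 as deposited, and the 3XSSC spot, named for a buffer, had 0.12 and 0.53. After the turn used for the calls the Arabidopsis spot had -1.15 and -3.27. It was thus negative and beyond 2-fold on each array, as QCR6 was, and would meet the rule for a negative call. The 3XSSC spot then had 0.12 and -0.53. Why a control spot had such ratios was not tested.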
